A study of Nematostella vectensis with 84 samples.

Results

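The libraries compared are 12: 6 from sea anemones recovering from calcium-free KSW at time point 1 (T1) and 6 from anemones exposed to streptomycin at T1. They are the T1 libraries of these 2 treatments among the 84 libraries of a series on trauma in adult Nematostella vectensis, whose remaining treatment was cytochalasin D. Every library came from the oral disc and tentacles and carries a letter from A to F. No strain or genotype is given in the sources used here, no untreated group was analysed here, and nothing in the labels ties the libraries of a group to different animals. The series' design text counts 3 replicates in each of 2 conditions that it does not name, whereas the labels give 6 letters, so each n of 6 may hold 3 replicates. The p-values therefore rest on a spread between libraries that could be technical. T1 does not mean the same in both treatments. In calcium-free KSW it is an hourly point of recovery, whereas in streptomycin it stands for a length of exposure, and the animals were sampled after a recovery period common to all streptomycin groups. The contrast therefore sets a treatment and its own T1 against another treatment and its own T1. The letters were joined into 3 pairs (A and D, B and E, and the remaining C and F), and the letter pair entered each fit as a block.

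The tentacles of sea anemones carry hair bundles, mechanoreceptors built from stereovilli joined by extracellular links. In vertebrates the tip links of hair cells are made of cadherins that need calcium, and calcium-free medium breaks them. Streptomycin, an aminoglycoside antibiotic, enters hair cells through their mechanotransduction channels and is toxic to them. Both treatments are thus known ways to injure mechanoreceptors, the first by breaking links from outside the cell and the second by an agent that acts at the channel and within the cell. The deposited table names its gene models by NVE numbers alone, and of these 23510 numbers 0 were found in the RefSeq gene table at hand. No gene is therefore described by function, no list of genes by function could be counted, and at most 2 identifiers are given for each direction of a comparison.

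Reads counted per T1 library ran from 303954 to 386944 in calcium-free KSW and from 211250 to 271863 in streptomycin. All 6 calcium-free libraries were thus deeper than all 6 streptomycin libraries, with means of 352900 ± 32000 and 241900 ± 23800 (SD, n = 6 each; two-sided exact permutation test within letter pairs, p = 0.00926, the smallest this test can give). One read equals 2.58 to 4.73 CPM, the level of a gene scaled to a library of 1000000 reads. After every library had been thinned at random to 211250 reads, calcium-free libraries still held more genes with at least 1 read, 12970 ± 575 against 11380 ± 412 (SD, n = 6 each; exact permutation test within letter pairs, p = 0.00926). Those counts at equal depth ran from 12089 to 13788 in calcium-free KSW and from 10894 to 12061 in streptomycin, without overlap. The 10 most abundant genes of a library took 27.8% ± 4.67 of its reads in calcium-free KSW and 41.3% ± 3.91 in streptomycin (SD, n = 6 each; exact permutation test within letter pairs, p = 0.0185). The groups overlapped in this share at 1 library each, since calcium-free F reached 35.9% and streptomycin F only 34.5%. The number of genes detected at equal depth mostly fell as this share rose, so these 2 measures are not separate results. It was 13788 in calcium-free A at a share of 21.8%, and 10894 in streptomycin A at 45.7%. The numbers in the sample titles were S56, S64, S72, S80, S135 and S143 in calcium-free KSW and ran from S90 to S130 in streptomycin. All 12 are below S147. No calcium-free number lies between S90 and S130, however, so the treatment and that number cannot be fully told apart.

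**Figure D1:**
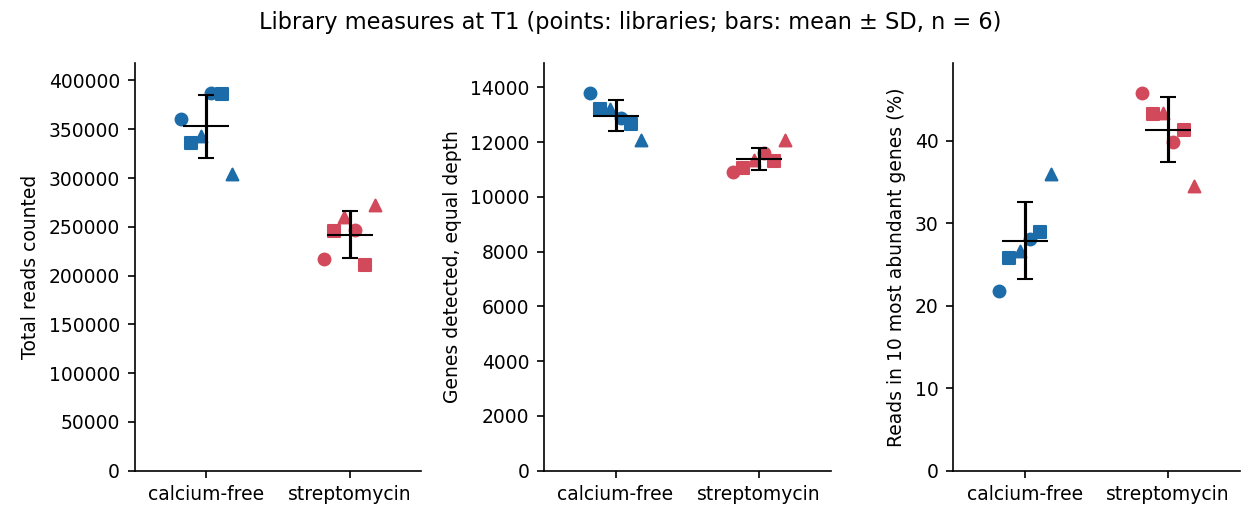
Total reads counted, genes detected after thinning to equal depth, and percent of reads in the 10 most abundant genes, for the 12 T1 libraries (circles are letters A and D, squares B and E, triangles C and F; bars are mean ± SD, n = 6). Calcium-free libraries lie above streptomycin libraries in the first 2 measures without overlap, and below them in the share of reads apart from the F libraries.

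Both treatment and letter pair ordered the libraries. The first principal component of log2 CPM held 25.7% of the variance of the 2000 most variable genes and separated the treatments, with scores from -1.6 to 20.5 in calcium-free KSW and from -14.8 to -3.6 in streptomycin. The calcium-free library nearest to streptomycin was F. Scores on this component also mostly fell as the share of reads in the 10 most abundant genes rose. Calcium-free A had the highest score and the lowest share (21.8%), and streptomycin A the lowest score and the highest share (45.7%). Calcium-free F and streptomycin F, at -1.6 and -3.6, had shares of 35.9% and 34.5%. Treatment and this share cannot be told apart along this component. The second component (17.5%) separated letters C and F from the rest in both treatments, with mean scores of 11.9 in calcium-free KSW and 12.6 in streptomycin. The next component (13.7%) separated B and E, with mean scores of 7.74 and 14.3. Libraries of the same treatment and letter pair had the highest median correlation of log2 CPM across genes, 0.939 over 6 pairs of libraries. The median was 0.919 between treatments within a letter pair (12 pairs of libraries) and 0.908 within a treatment between letter pairs (24 pairs). These correlations are across genes, which are not independent replicates. The highest single correlation, 0.948, was that of calcium-free F and calcium-free C. By the chi-square of their counts, the closest pair of libraries was calcium-free F and streptomycin F, of opposite treatments.

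**Figure D2:**
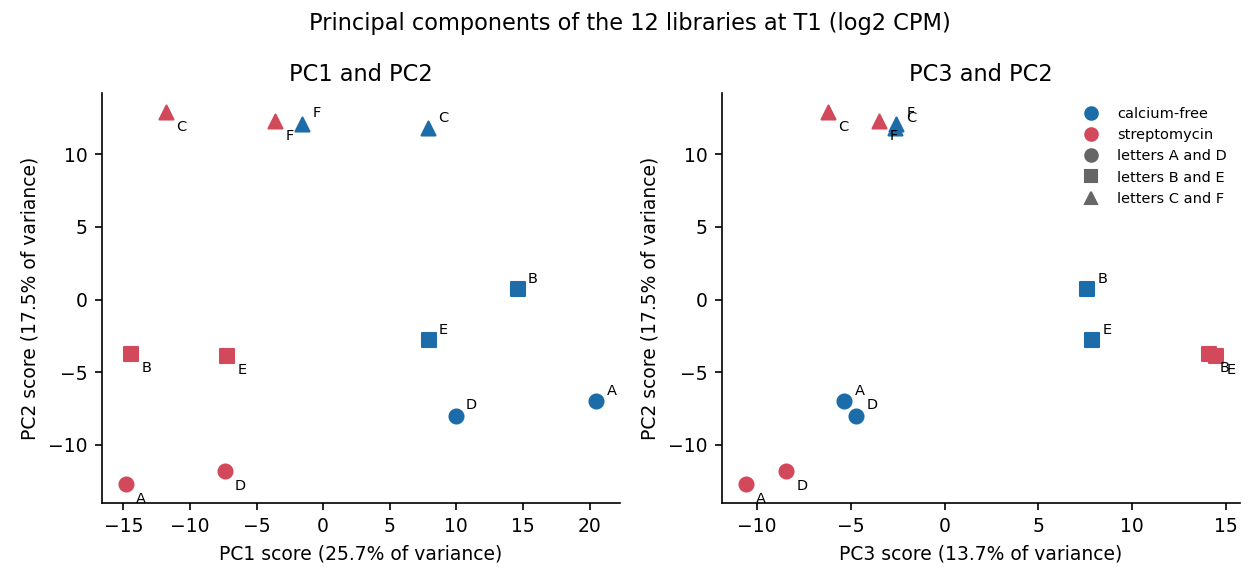
Scores of the 12 T1 libraries on the first 3 principal components of log2 CPM, coloured by treatment, shaped by letter pair and marked by letter. Treatment separates along PC1, letters C and F along PC2, and letters B and E along PC3, in both treatments.

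Some genes followed the letter pair as a switch. Over all gene models, 5 had 0 reads in the 4 libraries B and E of both treatments and at least 3 reads in each of the other 8 libraries. Likewise 2 genes were off in letters C and F alone, and 3 were on there alone. No gene was on or off by treatment, or by letters A to C against D to F, under the same definition. NVE15135 shows the pattern among abundant genes. In letters A and D it stood at 1489 and 1269 CPM in calcium-free KSW and at 1264 and 1110 in streptomycin, whereas the other 8 libraries had 40.8 to 146.5 CPM. NVE22345 was low in letters C and F, at 7.24 and 13.2 CPM in calcium-free KSW and 9.06 and 3.65 in streptomycin, against 223 to 1009 CPM elsewhere. Both differed between letter pairs (edgeR quasi-likelihood F test, Benjamini-Hochberg adjusted p = 5.37e-15 and 3.34e-14). They were also called by treatment, with log2 fold changes (calcium-free minus streptomycin) of 0.53 and -0.81 (edgeR adjusted p = 0.0284 and 0.00137). In total 6.2% of 2598 genes differed between letter pairs at T1, and 23 of them also differed between treatments. That is 14.3% of the genes that differed by letter pair, where 12.6% of all tested genes differed by treatment. It is 7.01% of the genes that differed by treatment, where 6.2% of all tested genes differed by letter pair. The overlap is thus near the share over all tested genes. The sources used here do not say what the letter pairs stand for.

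The letters kept these states across treatments but not across time points, as the levels with all 84 libraries scaled together showed. At T0, NVE15135 was high in letters B and E, at 1510 and 1690 CPM in calcium-free KSW and 1156 and 1387 in streptomycin. Letters A and D, the high pair at T1, had only 65 to 129.2 CPM at T0 in these 2 treatments. At T2 and T3 of both treatments, letters A, D, B and E were all high, from 976.5 to 1923 CPM, and C and F lay between 67.1 and 127.8 CPM. NVE22345, which was nearly off in C and F at T1, stood at 361 to 559.6 CPM in the same letters at T0. At T4 of calcium-free KSW it was at or below 20.8 CPM in every letter. Cytochalasin D had the same letters high and low at each time point, apart from 1 library of letters A and D at T4 with 467.9 CPM of NVE15135 where its partner had 103.7. A letter pair is therefore used here as a block within a time point, and libraries of the same letter at T0 and T1 were not treated as paired.

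With letter pair as a block, 328 of 2598 tested genes differed between calcium-free KSW and streptomycin at T1 (12.6%; edgeR quasi-likelihood test, adjusted p under 0.05; 736 at an unadjusted p under 0.05). Of the tested genes, 6.12% were higher in calcium-free KSW and 6.51% were lower. The tested genes are 11.1% of all gene models and hold 86.8% of the T1 reads. The differences were mostly moderate: the median size was 0.82 on the log2 scale for the higher genes and 0.66 for the lower ones, and 71 of the 328 genes differed by at least 1. The 4 differences of at least 2 were all higher in calcium-free KSW, and the largest difference among the lower genes was 1.43. All 6 libraries of one treatment lay above all 6 of the other for 79 of the 328 genes. Over all tested genes this held for 1.54% in the direction of calcium-free KSW and 1.77% in that of streptomycin. Without the letter-pair block 194 genes differed, 99 higher and 95 lower, all of them among the 328. When the 2 libraries of each letter pair were summed, for 3 values a group, 268 of 5201 genes were called, and 195 of these were among the 328. Without calcium-free A 206 genes differed, and without calcium-free C 203.

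The higher and the lower genes differed in abundance. The higher genes had a median level of 84.9 CPM and the lower genes of 299 CPM, against 66.9 CPM over all tested genes. When the tested genes were ranked by level and cut into 4 bins of equal size, 3.23% were higher and 2.62% lower in the least abundant bin. The next bins had 5.55% and 2.31%, and 8.01% and 4.47%. In the most abundant bin the balance was the other way, with 7.69% higher and 16.6% lower. The higher genes together took 3.52% ± 0.703 of the reads in calcium-free KSW and 1.6% ± 0.272 in streptomycin, and the lower genes took 39.6% ± 5.74 and 55.8% ± 4.02 (SD, n = 6 libraries each). These shares describe genes chosen by the same contrast and are no further test.

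**Figure D3:**
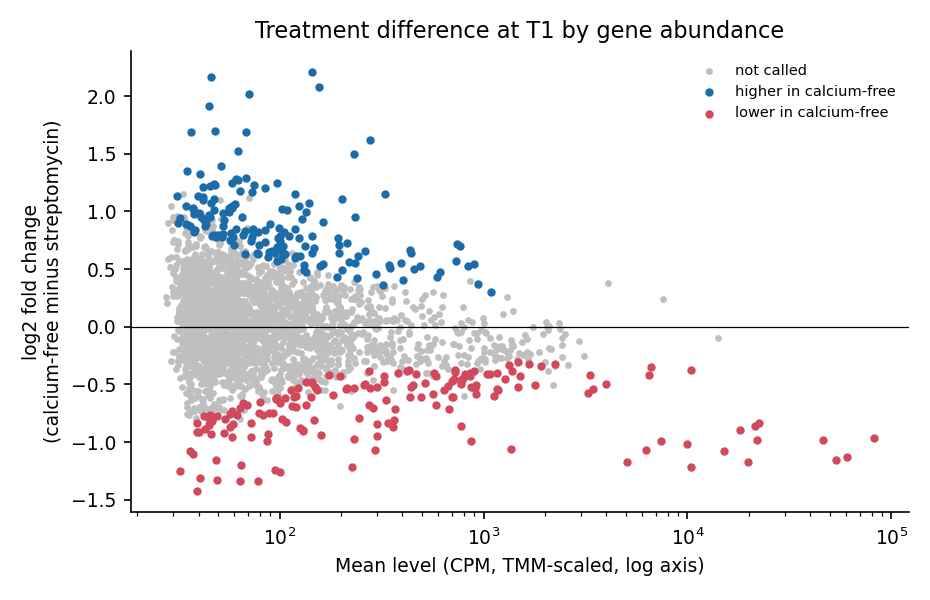
Log2 fold change at T1 (calcium-free minus streptomycin) against mean level in CPM (log axis) for the 2598 tested genes, with genes past an adjusted p of 0.05 coloured by direction. The higher genes have a median level of 84.9 CPM and the lower genes of 299 CPM. Of the 20 genes above 5000 CPM, 15 lie at -0.8 or below and 5 lie above -0.5.

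At the top of the abundance range, 20 genes had a mean level of at least 5000 CPM, a bound chosen after their values were seen. Of these, 18 were called lower after calcium-free KSW, against 6.51% of all tested genes. In the opposite direction 0 were called, and the median log2 fold change of the 20 was -0.98. By bounds not set in advance, 15 genes lay at -0.8 or below and 5 above -0.5, with none between. Some of these 5 were among the 18 called lower. The 20 genes took 28 to 44.1% of the reads in the calcium-free libraries and 42.8 to 54.5% in the streptomycin libraries. The mean share was 35% ± 5.33 in calcium-free KSW and 50% ± 4.07 in streptomycin (SD, n = 6), and only the F libraries overlapped. In bulk tissue, fewer cells of a type and less RNA per cell cannot be told apart, and without gene names no cell type can be assigned to these transcripts.

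The direction of the other abundant genes depended on the scaling. TMM factors, which correct for such a shift in composition, ran from 1 to 1.28 in calcium-free KSW and from 0.788 to 1.01 in streptomycin. With these factors 25 of the 50 most abundant genes were called lower after calcium-free KSW and 0 the opposite way. Of all tested genes, 6.51% were called lower. When libraries were scaled by their totals alone, a setting chosen after the data were seen, the median log2 fold change over all tested genes moved from 0.02 to 0.43. Of the 50 most abundant genes 15 were then lower and 13 higher. Over all tested genes 961 were called on that scale, and 96.1% of them were higher, against 48.5% of the calls with TMM. Of the 20 genes above 5000 CPM, 15 were called lower on that scale too, where 37 of all 2598 tested genes were. The median log2 fold change of the 20 was -0.57. With DESeq2 size factors 325 genes were called, of which 47.1% were higher.

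The share of reads in the 10 most abundant genes moved with the treatment, and a fit with this share as an added term, also chosen after the data were seen, called 0 genes by treatment with edgeR and 0 with DESeq2 (6.97% of the tested genes at an unadjusted p under 0.05 with edgeR). Treatment and letter pair already account for most of the share, of which 25% of the variance was left, so that the median SE of the 328 genes rose from 0.19 to 0.33 on the log2 scale. Their differences also shrank. The median log2 fold change of the higher genes was 0.30 with the term, positive in 80.5% of them, and that of the lower genes was -0.23, negative in 80.5%. Within this fit 84 genes followed the share itself at an adjusted p under 0.05. The share is built from the most abundant genes, so their own difference is removed by construction, to a median of -0.02 for the 20 genes above 5000 CPM. Leaving out the 50 most abundant genes altogether left 312 genes called, 289 of them among the 328, and thinning all libraries to equal depth left 266 of 2002 tested genes, 226 of them among the 328. Treatment and the composition of the libraries cannot be told apart in this design.

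Among genes above the median abundance with the same direction in all 3 letter pairs, NVE12592 and NVE5399 had the largest rise in calcium-free KSW over streptomycin. NVE12592 stood at 111.9 to 356 CPM in calcium-free KSW, with a median of 209, and at 11.7 to 83.5 CPM in streptomycin, with a median of 52.1. The groups did not overlap. Its log2 fold change was 2.21 ± 0.27 (SE, edgeR adjusted p = 5.87e-05). NVE5399 stood at 75.7 to 397 CPM in calcium-free KSW, with a median of 257, and at 11.7 to 100 CPM in streptomycin, with a median of 55.1. Its groups overlapped, because calcium-free F lay below 2 of the streptomycin libraries. The log2 fold change was 2.08 ± 0.30 (SE, edgeR adjusted p = 1.92e-04). The share of reads in the 10 most abundant genes matched the extremes of both genes in calcium-free KSW but not all of those in streptomycin. Both were highest in calcium-free A, where that share was 21.8%, lowest among the calcium-free libraries in F, at 35.9%, and lowest of all in streptomycin A, at 45.7% and with 2 reads of each gene. Among the streptomycin libraries both were highest in E, at a share of 41.3%, whereas F had the lowest share, 34.5%, with 54.8 CPM of NVE12592 and 69.4 CPM of NVE5399. With the share as a term their log2 fold changes were 0.72 ± 0.38 and 0.19 ± 0.40 (SE, edgeR adjusted p = 0.682 and 0.953).

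Of the genes lower in calcium-free KSW, NVE2223 and NVE22099 had the largest differences by the same rule. NVE2223 stood at 28.6 to 69.3 CPM in calcium-free KSW, with a median of 39.5, and at 74.9 to 144.98 CPM in streptomycin, with a median of 121.7. The log2 fold change was -1.34 ± 0.24 (SE, edgeR adjusted p = 7.83e-04). NVE22099 stood at 45.8 to 88.9 CPM in calcium-free KSW, with a median of 50.4, and at 113.2 to 163.1 CPM in streptomycin, with a median of 144.9. Its log2 fold change was -1.26 ± 0.19 (SE, edgeR adjusted p = 2.45e-04). The groups did not overlap for either gene. With the share as a term the log2 fold change of NVE2223 was no smaller, at -1.49 ± 0.46, but did not pass (SE, edgeR adjusted p = 0.406), and that of NVE22099 was -0.58 ± 0.34 (SE, adjusted p = 0.716). The call of NVE2223 also ended without letters A and D (log2 fold change -0.96, edgeR adjusted p = 0.0616).

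**Figure D4:**
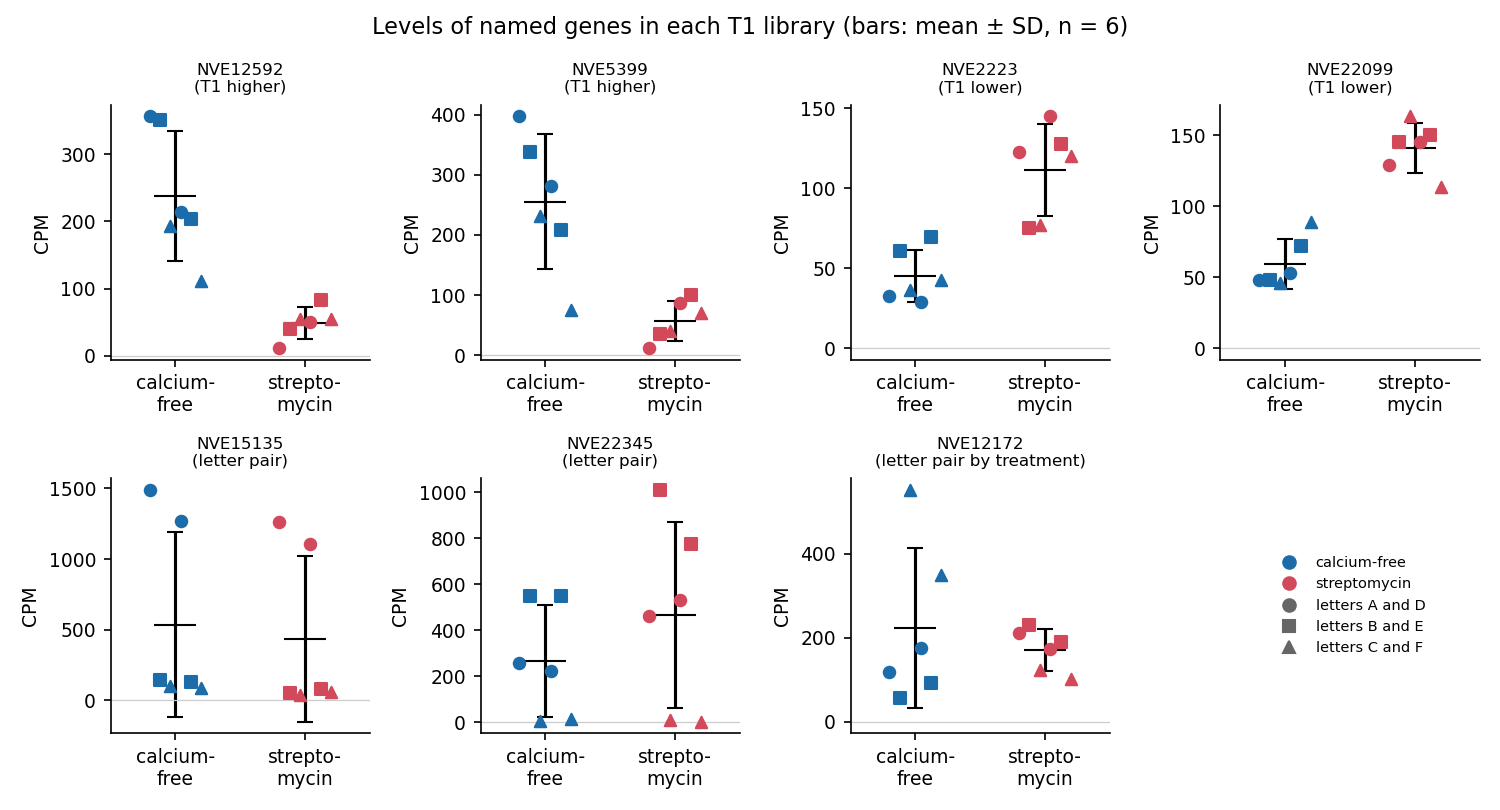
Levels in CPM (TMM-scaled over the 12 libraries) of the 7 genes described in the text, 1 panel a gene, by treatment; points are libraries shaped by letter pair, and bars are mean ± SD (n = 6). The first 4 genes separate by treatment apart from calcium-free F in NVE5399. The next 2 separate by letter pair and were also called by treatment. NVE12172 differs by treatment in opposite ways in letters B and E and letters C and F.

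The treatment difference was examined within each letter pair, at 2 libraries against 2, by contrasts of a fit with a term for treatment by letter pair. The 2 libraries may come from the same replicate, in which case these tests do not measure the spread between replicates. By edgeR, 5.66% of the genes differed within letters A and D, 1.66% (43 genes) within B and E, and 0.0385% (1 gene) within C and F. At an unadjusted p under 0.05 the counts were 554, 388 and 238. The median log2 fold change of the higher genes was 1.02, 0.90 and 0.61 in the 3 pairs in that order, and of the lower genes -0.83, -0.66 and -0.45. These medians describe genes chosen by the pooled contrast. Letters C and F were also the pair in which the 2 treatments lay nearest on the first principal component, at mean scores of 3.13 and -7.72, against 15.2 and -11.1 for A and D. Leaving out a pair in turn left 58 genes called without A and D, 125 without B and E and 326 without C and F. The test of the difference between letter pairs itself called 1 of 2598 genes (0.0385%; 6.43% at an unadjusted p under 0.05). The smaller counts within C and F are therefore not shown, gene by gene, to be smaller effects.

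The 1 gene that passed that test was NVE12172 (edgeR adjusted p = 2.70e-04), named because it was the only call. In letters C and F it stood at 552 and 349 CPM in calcium-free KSW and at 122.3 and 102 CPM in streptomycin. In B and E the order was turned, with 55.6 and 92.4 CPM in calcium-free KSW and 230 and 189 CPM in streptomycin. Within C and F the log2 fold change was 2.02 (adjusted p = 0.00108, edgeR), and within B and E it was -1.49 (adjusted p = 0.025, edgeR). In letters A and D the libraries had 117 and 176.3 CPM in calcium-free KSW and 211 and 172.2 in streptomycin, a log2 fold change of -0.37 that did not pass (adjusted p = 0.482, edgeR). Averaged over the pairs, the gene did not differ by treatment (log2 fold change 0.17 ± 0.35 SE, edgeR adjusted p = 0.785).

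To set the T1 contrast beside that of T0, the same contrast was fitted to the 12 T0 libraries of the 2 treatments, which share no library with T1. In streptomycin these labels stand for lengths of exposure, so T0 is an earlier time of recovery for calcium-free KSW alone. At T0, 222 of 2653 tested genes differed (8.37%), 99 of them higher (3.73%) and 123 lower (4.64%) in calcium-free KSW. Of the genes tested at both time points, 107 were called at both, all in the same direction. They are 34.4% of the T1 calls and 51.7% of the T0 calls among those genes. Of the 311 T1 calls tested at T0, 301 (96.8%) had the same sign at T0, against 75.3% of all 2381 genes tested at both. The median log2 fold change of the T1 higher genes was 0.80 at T1 and 0.55 at T0, and that of the lower genes -0.62 and -0.45. Seen from T0, the 89 genes that were higher there had a median of 0.86 at T0 and 0.65 at T1, and the 118 lower genes -0.74 and -0.53. Each list is thus larger at the time point that chose it. Across the 2381 genes the 2 sets of fold changes had a Pearson correlation of 0.702 and a Spearman correlation of 0.68, as a description across genes.

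**Figure D5:**
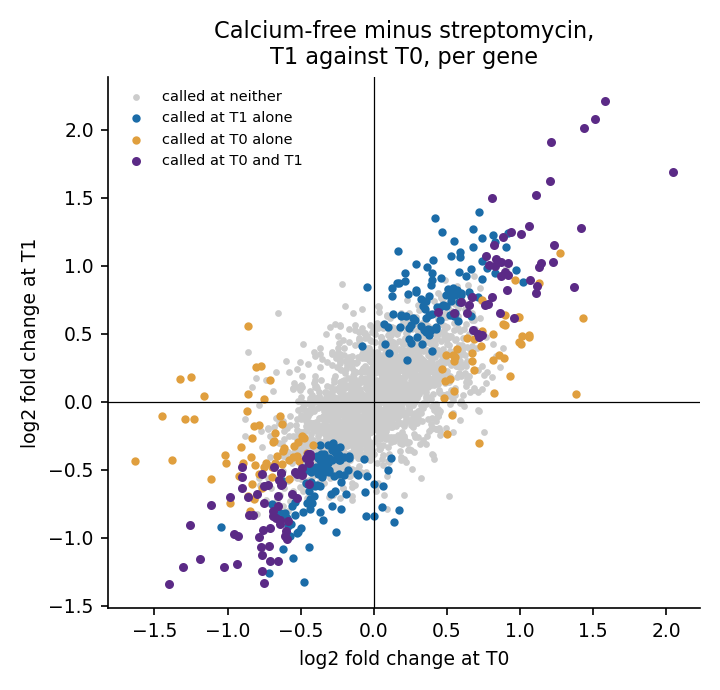
Log2 fold change of calcium-free minus streptomycin at T1 against that at T0 for each of the 2381 genes tested at both, coloured by where the gene was called. The 107 genes called at both have the same sign at both.

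Whether the treatments differed by another amount at T1 than at T0 was tested in 1 fit of the 24 libraries. Of 3426 genes, 0 were called by edgeR and 0 by DESeq2, and 4.41% had an unadjusted p under 0.05 with edgeR (0% called). The lowest adjusted p was 0.278. For the 328 genes called at T1 the median size of this difference was 0.24 with a median SE of 0.28 on the log2 scale. A difference between the T0 and T1 contrasts about as large as the T1 difference of many of these genes could therefore not be seen. The T1 contrast is accordingly not shown to be particular to T1. Library measures at T0 were not tested, and their groups overlapped. The 10 most abundant genes took 31% ± 5.09 of the T0 reads in calcium-free KSW, from 22.4 to 36.5%, and 39% ± 4.86 in streptomycin, from 33.4 to 47% (SD, n = 6). Totals at T0 ran from 249450 to 443489 reads and from 194043 to 306353, in the same order. At 194043 reads a library, 11758 to 13851 genes were detected at T0 in calcium-free KSW and 10708 to 12124 in streptomycin. The 20 genes above 5000 CPM had a median log2 fold change of -0.59 at T0, with 8 called lower against 4.64% of all genes tested there.

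At T2 and T3 the contrast has the same direction for most T1 calls. Their signs were shared by 289 of 316 genes at T2 (91.5%, against 69.3% of all genes tested at both) and by 285 of 307 at T3 (92.8%, against 72.4%). At T2, 0 of 2983 genes (0%) were called with edgeR (464 at an unadjusted p under 0.05; 19 with DESeq2). The calcium-free T2 library F stood apart, with 591692 reads of which the 10 most abundant genes took 11.5%, against 22.7% or more in the other calcium-free T2 libraries. Without it 406 of 3121 genes (13%) were called at T2, 190 of them higher. At T3, 6.14% of 2689 genes differed, and 81 of them had been called at T1. All T3 and 4 of the 6 T2 streptomycin libraries carry title numbers of S147 or more and the calcium-free ones do not. At T2 and T3, too, the treatment and that number cannot be fully told apart. Of the 299 T1 calls tested at all 4 time points, 251 (83.9%) had 1 sign throughout, against 44.4% of all genes tested there.

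Over the whole series, with all 84 libraries scaled together, NVE12592 averaged between 49.1 and 71.2 CPM in the 4 streptomycin groups. It averaged between 126.6 and 247 CPM in the 5 calcium-free groups and between 109 and 148.1 CPM in the 5 cytochalasin D groups. NVE5399 averaged 55.9 to 74.2 CPM in streptomycin, 120.6 to 264 in calcium-free KSW and 102 to 225 in cytochalasin D. For both genes each streptomycin mean was thus below each mean of the other treatments. NVE2223 showed another order. Its means were 32.6 to 52 CPM in the calcium-free groups, whereas cytochalasin D had 126 ± 25.5 at T0 and 109 ± 34.2 at T1 (SD, n = 6), beside the 133 ± 11.5 and 111.6 ± 29.3 of streptomycin. At T2 the means of cytochalasin D and streptomycin were 53.9 ± 23.4 and 69.9 ± 28.8 CPM, and at T3 they were 87.3 ± 16.2 and 65.7 ± 25.1 (SD, n = 6). NVE22099 averaged 125 to 141 CPM in streptomycin and 63.3 to 119.3 in calcium-free KSW, where the lowest mean was that of T1 and the highest that of T4. In cytochalasin D its means were 77.2 to 105.9 CPM. The contrast at T0 was 1.58 ± 0.26 for NVE12592, 1.51 ± 0.22 for NVE5399 and -1.40 ± 0.20 for NVE2223 on the log2 scale (SE, edgeR adjusted p = 4.62e-04, 1.64e-04 and 1.64e-04). For NVE22099 it was -0.72 ± 0.26 and did not pass (SE, edgeR adjusted p = 0.0801). The cytochalasin D libraries carry higher title numbers than the 12 compared here, so their levels are given without a test.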

How the data were processed

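Tag-based RNA libraries of the oral disc and tentacles were deposited by the authors as a table of raw read counts per gene model (23510 genes, 84 libraries), with no scaling. Bowtie2 was used, per the submitters' processing notes. The sources used here give neither its version and purpose nor the build, gene models' origin, read counter, strandedness or duplicate handling, so reads of near-identical, overlapping or antisense genes may have been split or joined. Every column matched 1 sample title. No columns were identical. The 2 T1 libraries closest by the chi-square of their counts were F of each treatment. They differed by 1.67 times the chi-square per degree of freedom that counting error gives.

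Counts were tested with edgeR 4.0.16 in R 4.3.3 (filterByExpr by group, TMM, glmQLFit, glmQLFTest, Benjamini-Hochberg adjustment over all tested genes, threshold 0.05). Each main fit had letter pair as a block. The fit over T0 and T1 had a block for each time point and letter pair. DESeq2 1.42.0 served as an alternative. The edgeR fits, not those of DESeq2, were also run on simulated data with a common dispersion for all genes. Standard errors were derived from the F statistic. CPM values are TMM-scaled, and log2 CPM used a prior count of 2. Library measures were compared by exact permutation within letter pairs (216 arrangements). Counting error alone is covered by statements on depth.

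The pairing was described by deviations from group means over the genes above median abundance. Between treatments, the correlation of letter-pair means was 0.474 (A and D), 0.423 (B and E) and 0.52 (the last pair), and at most -0.112 between unlike pairs. Such deviations cancel within a group, so positive values for like pairs bring negative ones for unlike pairs by arithmetic. The pairs were known from earlier results of these data, so these values are no independent check of the block. Single letters correlated at 0.0916 or more with the same letter and at 0.248 or more with the pair's other letter.

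The comparison, its block, the rule for named genes and the alternatives were chosen with earlier results of these data known. By that rule a gene is named if it passed the T1 test, lay above the median abundance of the tested genes and had the same direction in all 3 letter pairs. The largest 2 in each direction are given, because identifiers have no names. For letter pairs, the 2 genes of smallest adjusted p are given.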

Additional observations from a re-analysis of the deposited data

Results flagged for a closer look

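NVE12172 was the only gene called at T1 for a difference between calcium-free KSW and streptomycin that varied with the letter pair (edgeR adjusted p = 2.70e-04, F test of treatment by letter pair). It was higher in calcium-free KSW in letters C and F and lower in B and E. The call held without each of the 12 libraries in turn, with adjusted p-values up to 0.0091 by the same edgeR test. The libraries of a letter pair within a treatment may be the same replicate. The test then cannot tell a dependence on the letter pair from variation between replicates, and leaving out a library does not change this. In the other groups of the series its level varied widely, from 216.5 to 3133 CPM at T1 of cytochalasin D, where the mean was 1526 ± 1260 (SD, n = 6, all 84 libraries scaled together). Library totals, genes detected at equal depth, the share of the 10 most abundant genes and the 7 named genes were also searched for single libraries far from their group. Over these 20 sets of 6 values 0 were found, where chance gives about 1 in 20.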

How the results depend on the processing

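The 4 genes named for treatment kept their direction under every setting tried, and their calls under all but the share of the 10 most abundant genes as a term and, for NVE2223, the omission of letters A and D. Counts of calls moved more, and are given as counts or as a multiple of the reported count. Without the replicate block 194 genes were called at T1 (0.623 times as many higher, 0.562 times as many lower), and at T0 0.234 times as many. With single letters as blocks 218 were called at T1 (0.635 times as many higher). The DESeq2 test called 0.616 times as many higher at T1, 0.653 times as many at T0 and 2 genes for treatment by letter pair. With no low-count filter 0.592 times as many were lower at T1, 11 genes differed between T1 and T0, 12 passed for treatment by letter pair and 348 for letter pair. Summing letter pairs gave 1.62 times as many at T0. Thinning gave 0.626 times as many at T0 and 2 for treatment by letter pair. Library totals alone gave 961 at T1 (5.81 times as many higher, 0.219 times as many lower) and 1.76 times as many at T0. Without letters A and D 58 were called (0.176 times as many higher, 0.178 lower), and without B and E 125 (0.308 higher, 0.45 lower). The share as a term left 0, with 0 higher and 0 lower. The cause of these shifts was not tested. Where libraries were left out, the fit also held fewer of them.

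Leaving out 1 library at a time gave 203 to 437 genes at T1 (0.61 to 1.31 times as many higher, 0.621 to 1.36 lower), 0.536 to 1.33 times as many at T0 and 1 to 8 for treatment by letter pair. The lowest T1 count came without calcium-free C and the highest without calcium-free F. The number of higher genes dropped most without calcium-free A or C or streptomycin A or D, and the T0 count without calcium-free A, B or C or streptomycin B. The T1 minus T0 test called 0 genes in each of these fits. The 3 library measures kept their direction and passed in each. Only the 11.1% of gene models that passed the low-count filter could be tested, so genes below about 27.8 CPM are not covered.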

Other observations

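Many genes varied over the 12 T1 libraries like the 4 genes named for treatment. At a Pearson correlation of log2 CPM of at least 0.8, 87 genes varied with NVE12592 and 82 with NVE5399, and 84 and 81 genes varied against them at -0.8 or below. For NVE2223 the numbers were 51 and 15, and for NVE22099 91 and 61. The 12 libraries share treatment, letter pair, depth and composition, so these are descriptions of this set of libraries.

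Across the series, streptomycin groups held the highest shares of reads in the 10 most abundant genes, except at calcium-free T4. The group means were 39%, 41.3%, 35.7% and 34% from T0 to T3 of streptomycin. They ran from 25.7% to 34.9% in the 5 calcium-free groups, with the highest at T4, and from 24.3% to 29.5% in the 5 cytochalasin D groups. The 20 genes above 5000 CPM at T1 had a median log2 fold change, calcium-free minus streptomycin, of -0.59 at T0, -0.98 at T1, -0.72 at T2 and -0.20 at T3, and 18, 19, 18 and 18 of them were negative. By edgeR, 8 were called lower at T0, where 4.64% of all tested genes were, and 18 at T1, where 6.51% were. At T2 edgeR called 0 of all 2983 genes, so the 0 among these 20 is not particular to them. Without calcium-free T2 F 12 of the 20 were called lower, with a median of -0.58. In that fit 406 of all 3121 tested genes were called, 190 of them higher and the rest lower. At T3 0 of the 20 were called lower, where 94 of all 2689 tested genes were.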
